A study of Ramazzottius varieornatus and Hypsibius exemplaris with 16 samples.

Results

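In Hypsibius exemplaris, 6 of 19939 genes formed runs of consecutive gene models whose transcripts were more abundant in storage cells than in whole animals. The runs were BV898_04277 to BV898_04279 and BV898_07368 to BV898_07370, with 3 genes each. A gene counted as storage-enriched when a target of it (a transcript model) was shorter than 9000 bases, averaged at least 20 CPM (estimated counts per 1000000 counts of the library) over the storage cell libraries, and had all 5 storage cell values above all 3 whole-body values. That held for 476 genes, or 2.39% of all genes, and a run was at least 3 storage-enriched genes with consecutive BV898 numbers. The members were thus chosen by their storage cell and whole-body CPM values, so their levels in both sample types are given as a description, without a test.

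Storage cells are free cells in the fluid of the tardigrade body cavity, known for holding reserves such as glycogen, lipid and protein. BV898 is the prefix of the gene identifiers of the H. exemplaris genome annotation. In animal genomes, neighbouring genes can be tandem copies, which start out alike in length and sequence, or unrelated genes, some of them expressed in the same cells. The tables give no gene names, and no genome position or sequence of the species was used here, so the 6 genes are known by number, coding length and level. Whether the models of a run lie on 1 piece of the assembly, overlap or run on opposite strands was not analysed here.

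All H. exemplaris animals were of strain Z151, fed on Chlorella vulgaris at 18 °C. Storage cells (5 libraries) were released by dissection, aspirated and put straight into SMART-Seq lysis buffer. The 3 whole-body libraries came from active animals whose RNA was extracted with TRIzol and purified on columns. Mode of extraction and sample type thus cannot be told apart. Whole bodies contain storage cells too, and in either sample type fewer cells of a kind and less RNA per cell cannot be told apart. The labels call the libraries biological replicates, without saying how many animals each holds, and no defining marker was at hand to check the storage cell label.

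Libraries held 7680812 to 10343744 estimated counts in storage cells and 5437134 to 5807509 in whole bodies. Storage cell libraries were less alike than whole-body libraries. Over all targets, the mean rank correlation of a library with its own group was 0.815 in storage cell replicate 3, 0.86 to 0.876 in the other 4 storage cell libraries and at least 0.967 in whole bodies. Without replicate 3 the same 2 runs and 6 genes were found. Without storage cell replicate 1 there were 10 runs with 33 genes, and without whole-body replicate 2 there were 4 runs with 12 genes. With library sizes scaled by TMM factors, which allow for unequal composition, 35 runs with 111 genes were found. All 6 genes stayed in runs in each of these cases. That followed from the conditions, since leaving out a library only relaxes them and the TMM factors raise storage cells against whole bodies.

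Most storage-enriched genes stood alone. Of the 476, 396 had no storage-enriched gene on either side, 74 formed 37 runs of 2, and 6 formed the 2 runs of 3. No run was longer. The next number was also storage-enriched for 41 of the 474 storage-enriched genes whose next number is in the tables, which is 8.65% against 2.39% of all genes. At a difference of 2 numbers the share was 4.89%, and at differences of 3 to 20 it lay between 1.7% and 3.82%. There were 99 stretches of 3 numbers with exactly 2 storage-enriched genes. These stretches overlap: each run of 2 enters from both sides, and the ends of the 2 runs of 3 enter too. They are thus not separate near-runs. In 72 of them the third gene was below 20 CPM in storage cells and its storage cell values did not all exceed the whole-body values. In another 23 the third gene reached 20 CPM but its storage cell values did not all exceed the whole-body values. In 4 they all did, but their mean was below 20 CPM.

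**Figure D1:**
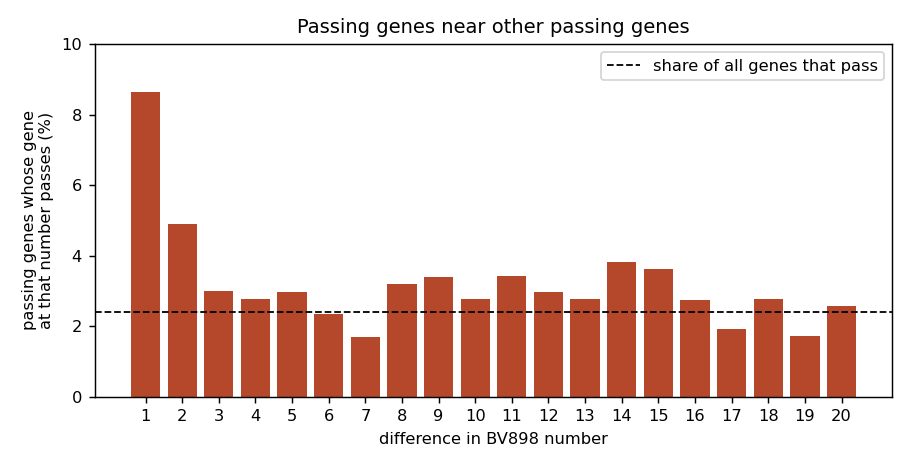
Percentage of storage-enriched H. exemplaris genes for which the gene at a given difference in BV898 number (1 to 20, horizontal axis) is storage-enriched too. Bars stand at 8.65% and 4.89% for differences of 1 and 2, and at 1.7% to 3.82% beyond, beside the dashed line at 2.39% for all genes.

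The first run opened with the gene that had the largest ratio between the sample types among the 6. BV898_04277.t01, with a coding length of 1158 bases, had 424, 2375, 3065, 2394 and 3206 CPM in storage cell replicates 1 to 5, against 65.6, 66.8 and 72.5 CPM in whole-body replicates 1 to 3. The groups did not overlap, and storage cell replicate 1 lay far below the other 4 while still 5.84 times above the highest whole body. Its mean was 2293 ± 1111.5 CPM in storage cells (SD, n = 5) and 68.3 ± 3.66 CPM in whole bodies (SD, n = 3), a 33.6-fold ratio. Of the 476 storage-enriched genes, 18 had a larger ratio. Its mean TPM in storage cells ranked 93 of all 20853 targets, and that in whole bodies ranked 2605.

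Its neighbour BV898_04278.t01 is the shortest of the 6, with 294 bases. It had 34.8, 39.6, 58.5, 62.4 and 46.5 CPM in storage cells, against 10.7, 8.2 and 7.91 CPM in whole bodies. The lowest storage cell library was 3.26 times the highest whole body. Means were 48.4 ± 11.9 CPM in storage cells (SD, n = 5) and 8.93 ± 1.52 CPM in whole bodies (SD, n = 3), a 5.42-fold ratio. Of the 6 genes it lay nearest to the minimum of 20 CPM, and its whole-body level rests on 43 to 62 counts a library.

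The third gene, BV898_04279.t01 (732 bases), was readily detected in both sample types. It had 544, 636, 807, 897 and 632 CPM in storage cells, against 129, 160.2 and 149 CPM in whole bodies. Storage cell values lay close together and all exceeded the whole bodies, by at least 3.39 times. The means of 703 ± 144 CPM in storage cells (SD, n = 5) and 146 ± 15.6 CPM in whole bodies (SD, n = 3) gave a 4.81-fold ratio.

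Per length, the order of the 3 genes was different in the 2 sample types. Deposited TPM, which divides by effective length, averaged 1566 ± 721 for BV898_04277, 395 ± 151 for BV898_04278 and 1019 ± 382 for BV898_04279 in storage cells (SD, n = 5). In whole bodies it averaged 60.8 ± 0.887, 79.7 ± 16.7 and 254 ± 23.1 for the same genes (SD, n = 3). BV898_04277 thus had the highest mean level of the run in storage cells and the lowest in whole bodies. The first 2 of these genes overlapped in storage cells only through replicate 1, where they had 356 and 335 TPM, and there BV898_04279 led with 923 TPM. BV898_04279 was the highest of the 3 in every whole body, at 234 to 279 TPM, while BV898_04277 was the lowest in every one, at 59.8 to 61.6 TPM.

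The second run opened with the longest of the 6 genes, BV898_07368, whose 2 targets have 3792 and 3813 bases. The tables split reads between them, since their estimated counts were not whole numbers in any of the 8 libraries, so the level of each is uncertain. The leading target BV898_07368.t02 had 164, 177, 152, 259 and 145 CPM in storage cells, against 19.96, 20.1 and 19.2 CPM in whole bodies. Replicate 4 was the highest storage cell library, and the lowest was 7.22 times the highest whole body, the widest such gap among the leading targets of the 6 genes. The mean was 179.5 ± 46.1 CPM in storage cells (SD, n = 5) and 19.8 ± 0.491 CPM in whole bodies (SD, n = 3), a 9.08-fold ratio.

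BV898_07368.t01 met the conditions as well. It had 60.1, 64.9, 121, 86.4 and 114 CPM in storage cells, against 2.59, 9.02 and 8.38 CPM in whole bodies, and the groups did not overlap. It held 25% to 44.3% of the gene's counts in storage cells and 11.5% to 30.9% in whole bodies. Both targets together averaged 269 ± 46.8 CPM in storage cells (SD, n = 5) and 26.4 ± 3.44 CPM in whole bodies (SD, n = 3). The other 5 genes have a single target each, with whole-number counts in every library.

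BV898_07369.t01 (657 bases) had the highest mean TPM of the 6 genes in both sample types, although BV898_04277.t01 was higher in storage cell replicates 3 and 4. In storage cells it had 856, 1376, 1175, 965 and 1813 CPM, against 251, 296 and 269 CPM in whole bodies. The lowest storage cell library was 2.89 times the highest whole body, and the mean of 1237 ± 379 CPM in storage cells (SD, n = 5) was 4.55 times that of 272 ± 22.4 CPM in whole bodies (SD, n = 3). In TPM it averaged 2053 ± 369 in storage cells (SD, n = 5), rank 62 of all 20853 targets, and 523 ± 42 in whole bodies (SD, n = 3), rank 306. It was thus an abundant transcript of both sample types.

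BV898_07370.t01 (1101 bases) varied most among storage cells. It had 14.97, 364, 360.0, 24.1 and 417 CPM in storage cell replicates 1 to 5, against 8.27, 9.6 and 3.68 CPM in whole bodies. Replicates 1 and 4 lay near the whole bodies, with 115 and 186 counts against 20 to 55, and the other 3 storage cell libraries lay far above. The lowest storage cell value was 1.56 times the highest whole-body value, the narrowest gap of the 6 genes. The mean of 236 ± 199 CPM in storage cells (SD, n = 5) was 32.9 times that of 7.18 ± 3.1 CPM in whole bodies (SD, n = 3), but the SD was nearly as large as the storage cell mean. Highest and lowest storage cell libraries differed 27.9-fold, against a median of 4.3-fold over the 476 storage-enriched genes, of which 13 had a wider range.

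Levels per length differed far more within the second run than within the first. Mean TPM in storage cells was 33.4 ± 16.4 for BV898_07368.t02, 2053 ± 369 for BV898_07369 and 157 ± 127 for BV898_07370 (SD, n = 5). In whole bodies the same targets had 4.01 ± 0.259, 523 ± 42 and 6.64 ± 3.01 TPM (SD, n = 3). BV898_07369 was the highest of the run in each of the 8 libraries. The highest of the 3 means exceeded the lowest 61.4-fold in storage cells and 130-fold in whole bodies, against 3.96-fold and 4.18-fold in the first run. BV898_07368.t02 and BV898_07370 changed order among the storage cell libraries, since BV898_07370 had 13.6 and 24.5 TPM in replicates 1 and 4, below the 34.6 and 60.9 TPM of BV898_07368.t02 there, and was the higher one in replicates 2, 3 and 5.

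**Figure D2:**
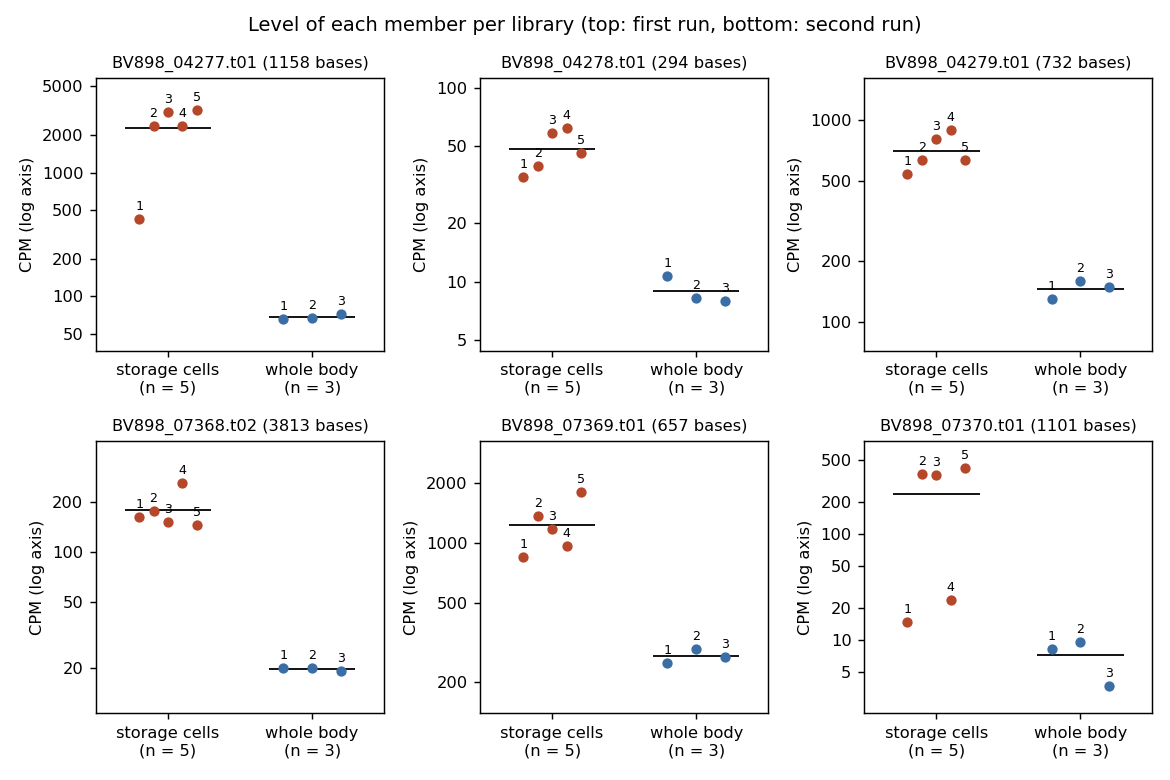
CPM on log axes of the leading target of each of the 6 genes in storage cells (5 libraries) and whole bodies (3 libraries); digits are replicate numbers and lines are group means. The groups do not overlap in any panel, which the choice of genes fixed, and BV898_07370.t01 has 14.97 and 24.1 CPM in storage cell replicates 1 and 4.

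On the TMM scale the differences were larger than the CPM ratios. The factors were 0.506 to 0.964 in storage cells and 1.85 to 2.04 in whole bodies, and the edgeR fit over all 11764 targets tested gave log2 fold changes (storage cells over whole bodies) of 6.55 (SE 0.94) for BV898_04277.t01, 3.98 (SE 0.48) for BV898_04278.t01 and 3.82 (SE 0.53) for BV898_04279.t01. In the second run they were 4.77 (SE 0.54) for BV898_07368.t02, 3.7 (SE 0.55) for BV898_07369.t01 and 6.38 (SE 1.34) for BV898_07370.t01. Their median was 4.37, against 4.47 over the 476 storage-enriched genes and -0.47 over all targets tested. That both sets of chosen genes lay above all targets followed from how they were chosen. Over the whole table edgeR called 1548 targets (13.2% of those tested) higher in storage cells at an adjusted p below 0.05. No call is given for the 6 genes, because the same values chose them.

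Together the 6 genes made up 0.479% ± 0.164 of the counts in storage cells (SD, n = 5) and 0.0529% ± 0.0041 in whole bodies (SD, n = 3). The targets of all 476 storage-enriched genes that met the conditions held 24.5% ± 4.22 and 2.84% ± 0.164. The share of the 6 was lowest in storage cell replicate 1, at 0.21%, and between 0.469% and 0.637% in the other 4.

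Neighbours within the runs differed in length. The longer of 2 neighbouring members was 3.94 times the shorter for BV898_04277 and BV898_04278, 2.49 times for BV898_04278 and BV898_04279, 5.8 times for BV898_07368 and BV898_07369, and 1.68 times for BV898_07369 and BV898_07370. The median of these 4 ratios was 3.21, beside 1.96 over all 19746 pairs of neighbouring numbers in the tables, 1.74 over all pairs of storage-enriched genes outside the runs, and 1.51 over the 37 runs of 2. The 75th percentiles of these sets were, in the same order, 3.32, 2.57 and 1.91. The median of the members thus lay below the first of them and above the others. The closest pair in length in the first run was not a neighbouring one, since BV898_04277 and BV898_04279 differed 1.58-fold. The set of runs, and with it this median, depended on single libraries: it was 1.63 over the 10 runs found without storage cell replicate 1 and 1.79 over the 4 found without whole-body replicate 2. The 6 lengths, from 294 to 3813 bases, had a median of 916.5 bases, beside 1053 bases for storage-enriched genes and 975 bases for all genes.

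The profile of a gene over the 5 storage cell libraries was compared after its level had been removed, which the choice of genes had used. Each log2(CPM + 0.5) value was taken relative to the gene's mean over these libraries, and the distance of 2 genes was the root mean square difference in log2 units. BV898_04278 and BV898_04279 had nearly the same profile, with a distance of 0.094. Only 31 of the 113050 pairs among the 476 storage-enriched genes were closer. The distance is not scaled by spread, so genes that vary little among storage cells lie close to each other. Both genes varied little: 431 of the 476 had a wider storage cell range than BV898_04278 and 445 a wider one than BV898_04279. How much of the small distance comes from this was not tested. Both were lowest in replicate 1 (-0.44 and -0.35) and highest in replicate 4 (0.4 and 0.38), and the TPM of BV898_04279 was 2.35 to 2.84 times that of BV898_04278 in the 5 storage cell libraries, against 2.38 to 3.81 times in whole bodies. With any 1 storage cell library left out, their distance was 0.0763 to 0.104.

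The other pairs were less alike. BV898_04277 lay at 0.9 from BV898_04278 and at 0.95 from BV898_04279, mainly through replicate 1, where it was 2.15 below its mean. Without that library the distances were 0.31 and 0.33. In the second run BV898_07368.t02 and BV898_07369 lay at 0.59, and they did not share a highest or lowest library. BV898_07370 lay at 1.79 from BV898_07369 and 2.29 from BV898_07368.t02, and 86.5% and 96.4% of the pairs of storage-enriched genes were closer than these. The median over the 4 neighbouring pairs was 0.75, beside 0.87 over the 9 pairs of members from different runs, 0.65 over the 37 runs of 2 and 1.06 over all pairs of storage-enriched genes outside the runs. These pairs share libraries and genes, so the values are a description.

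**Figure D3:**
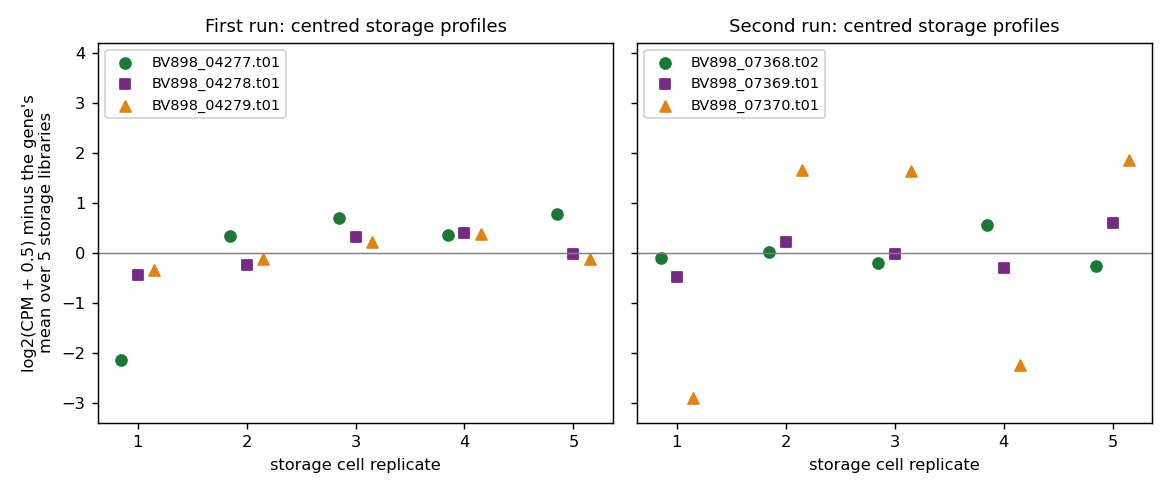
log2(CPM + 0.5) of each member minus its own mean over the 5 storage cell libraries, by replicate, for the first run (left) and the second (right). BV898_04278.t01 and BV898_04279.t01 nearly coincide in every replicate, BV898_04277.t01 is at -2.15 in replicate 1, and BV898_07370.t01 is at -2.91 and -2.24 in replicates 1 and 4.

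**Figure D4:**
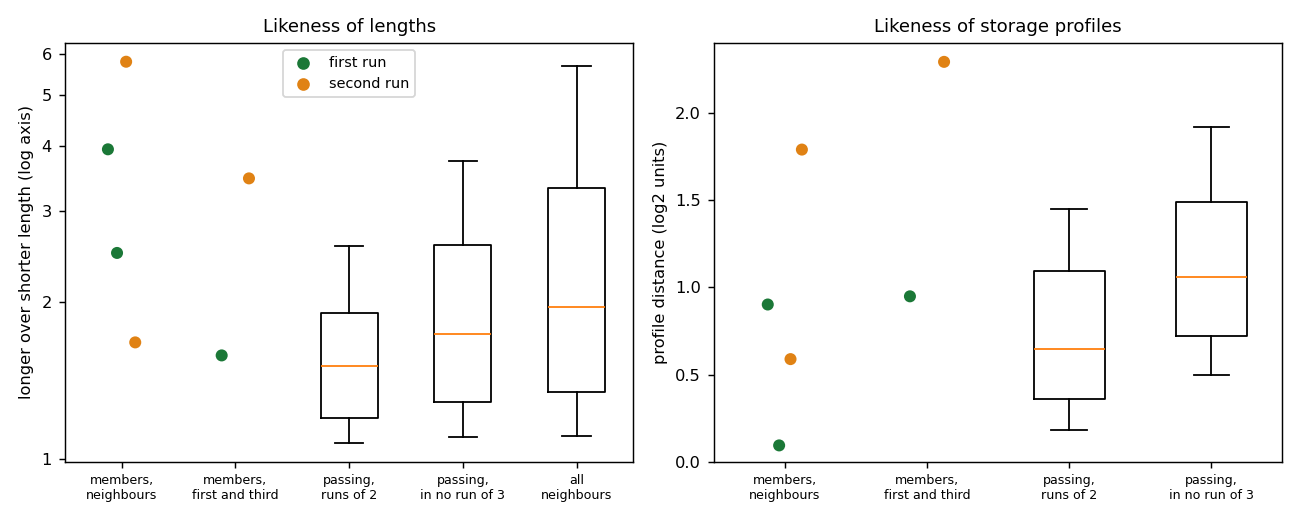
Ratio of longer to shorter coding length (left, log axis) and profile distance over the 5 storage cell libraries (right) for pairs of members (points) beside other pairs of H. exemplaris genes (boxes from the 25th to the 75th percentile with the median, whiskers at the 10th and 90th). Neighbouring members have length ratios of 1.68 to 5.8 and distances of 0.094 to 1.79. Genes in runs of 2 are also among those in no run of 3.

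Storage cell replicate 1 was the lowest of its group for 5 of the 6 members, all but BV898_07368.t02, which was lowest in replicate 5. The same library was the lowest for 225 of the 476 storage-enriched genes (47.3%), more than any other. Replicate 4 was the highest for BV898_04278, BV898_04279 and BV898_07368.t02, and replicate 5 for the other 3. Over the 476 genes these were the highest libraries in 24.4% and 36.3%.

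The numbers around the runs resembled the whole table in their storage cell levels. Of the 19 listed numbers within 5 of either run, 3 (15.8%) averaged at least 20 CPM in storage cells and 10 (52.6%) below 1 CPM, beside 17.7% and 54.0% of all genes. The numbers directly beside a run cannot be storage-enriched, since the run would then be longer. For the others, the share to compare with is the 2.39% of all genes that were storage-enriched, so few were to be expected. Of the 5 numbers on each side of the first run, none was storage-enriched. In storage cells 5 of them had a mean below 1 CPM, and in 4 all storage cell values lay below all whole-body values. The nearest to the conditions was BV898_04276.t01 (4869 bases), the number just before the run. It had 60.7, 197, 54.4, 308 and 94.2 CPM in storage cells, against 54.4, 70.0 and 52.8 CPM in whole bodies. Of the storage cell libraries, 3 exceeded every whole body and 2 did not, so the groups overlapped and the gene failed by its separation alone. With TMM-scaled library sizes it met the conditions, and the first run then reached from BV898_04276 to BV898_04279.

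The number after the first run, BV898_04280.t01, was at 0 counts in all 5 storage cell libraries and averaged 1.94 ± 0.588 CPM in whole bodies (SD, n = 3). At the edges of the second run, BV898_07367.t01, the number before it, had no count in any of the 8 libraries, and BV898_07371.t01, just after it, averaged 8.24 ± 9.79 CPM in storage cells (SD, n = 5) and 69.3 ± 7.2 CPM in whole bodies (SD, n = 3), with all storage cell values below all whole bodies. Of the 9 listed numbers within 5 of the second run, none was storage-enriched, which was fixed in advance for those at its edges. In storage cells 5 of the 9 averaged below 1 CPM. The highest, BV898_07363.t01, averaged 19.1 ± 3.91 CPM there (SD, n = 5), just under the minimum, and 47.7 ± 2.72 CPM in whole bodies (SD, n = 3). The tables list 9 of the 10 numbers around the second run.

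**Figure D5:**
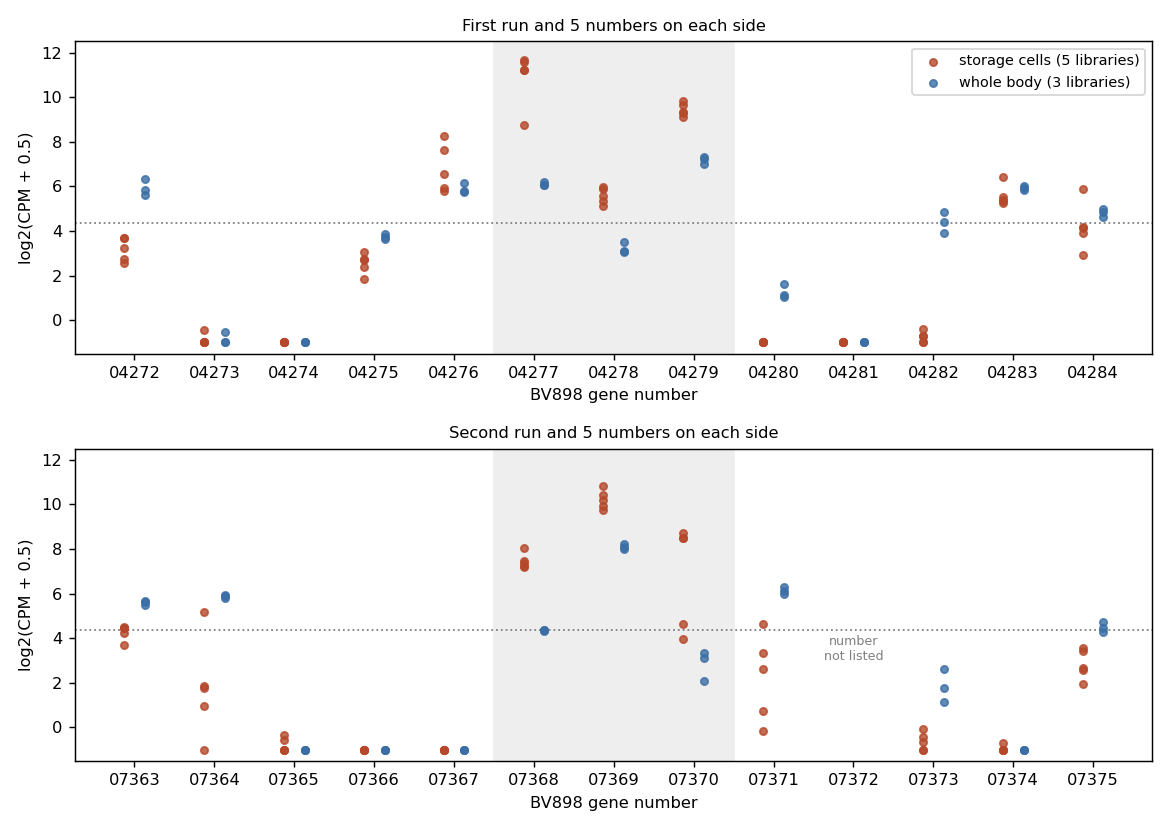
log2(CPM + 0.5) in storage cell and whole-body libraries for the members (shaded) and the 5 BV898 numbers on each side; each point is 1 library and the dotted line marks the minimum of 20 CPM. All storage cell points lie above the whole-body points within the shading, and of the numbers outside it BV898_04276.t01 comes nearest to that.

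The same conditions were applied to the opposite direction and to the other species. With whole bodies above storage cells, 4628 H. exemplaris genes (23.2%) qualified and 385 runs with 1401 genes resulted, up to 10 genes long. In Ramazzottius varieornatus (strain YOKOZUNA-1, 5 storage cell and 3 whole-body libraries), 1396 of 13920 genes (10.03%) were storage-enriched and 31 runs with 101 genes resulted, up to 5 genes long. More genes qualified in both of these sets, so the numbers of runs are not comparable as they stand. Set against the share of all genes that qualified, the share whose next number qualified was 3.62 times as large for storage-enriched H. exemplaris genes. It was 1.55 times for whole-body-enriched genes of the species and 1.49 times for storage-enriched R. varieornatus genes. For whole-body-enriched R. varieornatus genes (13.4% of all) it was 1.4 times. The highest value such a ratio can take falls as more genes qualify, so the ratios are not fully comparable either. With TMM-scaled library sizes the first of these ratios was 2.14, since 7.55% of all genes then qualified, and the other ratios were not computed on that scale. The differences between the ratios were not tested.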

How the data were processed

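The authors deposited 1 table per library, with target length, effective length, an estimated count and TPM, per the file headers. Estimated counts are not normalized and divide shared reads among targets. The deposited TPM values are scaled by effective length to 1 total per library. The submitters' processing notes name bcl2fastq 2 and kallisto 0.46.1. Genome build and transcript set: not given in the sources used here. Lengths are coding lengths, since 99.2% of them in H. exemplaris divide evenly by 3.

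Samples were grouped by title. CPM is the estimated count over the library total. Each gene was represented by its storage-enriched target with the highest mean storage CPM (other genes by the target with the most counts). The members and lists were chosen with earlier results of these data known. All members are named, since the naming rule covers both runs. Rounded counts of all 8 H. exemplaris libraries were fitted with edgeR 4.0.16 (R 4.3.3, filterByExpr, TMM, quasi-likelihood test, Benjamini-Hochberg adjustment over all targets tested, no covariates). DESeq2 1.42.0 was an alternative. Standard errors are the log2 fold change over the square root of F. The run search and the fit were tried on simulated data. For the fit, few targets were changed, equally in both directions, so the unequal composition of these libraries was not covered. Python 3.11.15, numpy 2.4.6 and pandas 2.3.3 were used. Alternatives covered CPM minimum, scaling, TPM, length limit, summing targets, run length, pseudocount, filter and each library left out; skipping absent numbers was added after seeing the data. Reads amplified without molecular identifiers are not independent molecules, and p-values set the group difference against the spread between these libraries.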

Additional observations from a re-analysis of the deposited data

Results flagged for a closer look

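The storage cell libraries of 9 quantities (the CPM of the 7 targets, the summed CPM of BV898_07368 and the share of counts in the 6 genes) were examined for 1 library standing far from its group. BV898_07368.t02 had 259 CPM in storage cell replicate 4, against 145 to 177 CPM in the other 4 storage cell libraries and 19.2 to 20.1 CPM in whole bodies. Its distance from the next library, as a share of the whole range, was 0.723, above the critical value of 0.71. Chance picks out about 1 in 20 groups. The 2 targets of this gene share reads. Their summed CPM was 346 in replicate 4 and 224 to 274 in the other storage cell libraries, with a gap of 0.591 of the range, below that value. The value of 424 CPM of BV898_04277.t01 in storage cell replicate 1 had a gap of 0.701 and was not picked out.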

How the results depend on the processing

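The 6 genes remained in runs under all 16 alternatives that change which genes qualify or which libraries enter, though other genes joined them in some. Most of these alternatives only relax the conditions, and the TMM factors raise storage cells against whole bodies. The lowest storage cell mean of the 6 was 48.4 CPM, above the highest minimum tried, 40 CPM. Keeping the 6 was thus largely fixed in advance and is no measure of stability. A minimum of 10 CPM gave 12 genes in 4 runs, as did deposited TPM in place of CPM, and a minimum run of 2 gave 80 genes in 39 runs. TMM-scaled library sizes gave 111 genes in 35 runs and a share of 16.1% whose next number also qualified, but 7.55% of all genes qualified then, so the ratio of these shares was 2.14 against 3.62. Leaving out 1 library gave 6 to 33 genes in 2 to 10 runs and shares of 8.38% to 15.1%, the highest without storage cell replicate 1 (33 genes, 10 runs). The median length ratio of neighbouring members then ranged from 1.63 to 3.21 and the median profile distance from 0.62 to 1.02.

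The edgeR fit called 3814 targets, 1548 higher and 2266 lower in storage cells. Leaving out 1 library gave 2062 to 5589 calls, with 650 to 2003 higher and 1412 to 3586 lower. The fewest calls came without whole-body replicate 1, 2 or 3 (2062, 2229 and 2335) and the most without storage cell replicate 3. DESeq2 called 5683 targets, 2250 higher and 3433 lower. Replicate numbers 1 to 3 occur in both groups. Same-numbered libraries had correlations of deviations of 0.00293, 0.00348 and 0.0345, and differently numbered ones of -0.0371 to 0.0381. With 3 libraries a group and unlike preparation, these values cannot tell whether same-numbered libraries share an origin. With the replicate block over these 6 libraries 161 targets were called, 84 higher and 77 lower. The same 6 libraries without the block gave 3508 calls, 1390 higher and 2118 lower. The block also leaves fewer residual degrees of freedom, and what brought the fall was not tested. The log2 fold changes of the 6 leading targets had 72 values from 3.37 to 6.81 under the edgeR and DESeq2 alternatives run. Their positive sign followed from the choice of the genes, so only the size of these values is informative. The cause of the other moves was not tested either.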
